A study of Homo sapiens with 12 samples.

Results

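The 10 genes NR4A1, NR4A2, NR4A3, ATF3, EGR1, FOS, FOSB, JUN, JUNB and FOSL1 encode nuclear receptors and transcription factors that cells switch on within minutes to hours of a signal. They were chosen by symbol, with earlier results of these data known. Each was matched to the identically named entry of the deposited count table, and they are 10 of its 52859 genes. All 10 passed the filter on low counts and were among the 16051 genes tested. RNA was sequenced from MDA-MB-231, an established human triple-negative breast cancer cell line, after lipid transfection with a locked nucleic acid (LNA), a short, chemically stiffened oligonucleotide that pairs with a complementary RNA. The 4 groups of 3 libraries each received 20 nM of the mtAsn-1 LNA, the mtAsn-2 LNA, the mtLys LNA or a control LNA, and were harvested on day 2. All of them, the control included, were therefore transfected cells, and no untransfected group was analysed here. The mtAsn-1 and mtAsn-2 LNAs are named for the mitochondrial asparagine tRNA and mtLys for the mitochondrial lysine tRNA. Levels are given as CPM, the gene's count per 1000000 counts of the scaled library. The replicates are numbered, but whether each was its own culture is not stated, and every p-value therefore rests on library-to-library spread that could be technical.

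NR4A1, NR4A2 and NR4A3 are orphan nuclear receptors whose activity is set mainly by how much of each is made, since no conventional hormone is known to control them. FOS, FOSB and FOSL1 pair with JUN or JUNB to form the AP-1 dimers, ATF3 is a stress-induced factor that joins the same leucine zipper network, and EGR1 is a zinc finger factor. Their genes are switched on through growth factor, calcium, cAMP and stress signals that act on serum response factor at CArG boxes and on CREB at cAMP response elements (CREs), and many of their mRNAs are short-lived. In breast cancer cells of the mesenchymal kind, FOSL1 is known as the prevailing FOS family protein.

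The promoters show where such signals could enter, and 4 of them are printed here because these genes span the range of changes described further on. RefSeq promoter windows, which run from 250 bases before to 50 bases after a transcript's start, were found for 8 of the 10 genes in 10 windows (build GRCh38.p14, RefSeq). Capitals mark CArG boxes and the CRE core TGACG or its reverse complement CGTCA. The EGR1 window is chr5:138465229-138465528, the NR4A3 window chr9:99821635-99821934, the FOS window chr14:75278578-75278877 and the FOSB window chr19:45467746-45468045, all on the plus strand.
EGR1: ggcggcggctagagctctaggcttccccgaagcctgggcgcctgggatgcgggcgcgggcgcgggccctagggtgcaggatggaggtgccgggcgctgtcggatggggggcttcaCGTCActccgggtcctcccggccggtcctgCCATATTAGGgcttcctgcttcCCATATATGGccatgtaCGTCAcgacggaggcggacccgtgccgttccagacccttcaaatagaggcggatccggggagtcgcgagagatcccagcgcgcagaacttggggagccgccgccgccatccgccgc
NR4A3: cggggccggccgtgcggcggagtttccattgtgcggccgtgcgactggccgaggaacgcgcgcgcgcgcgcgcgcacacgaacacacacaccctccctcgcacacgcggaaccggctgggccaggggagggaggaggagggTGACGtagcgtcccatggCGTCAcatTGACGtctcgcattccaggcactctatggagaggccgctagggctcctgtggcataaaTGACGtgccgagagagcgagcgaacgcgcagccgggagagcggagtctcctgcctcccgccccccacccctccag
FOS: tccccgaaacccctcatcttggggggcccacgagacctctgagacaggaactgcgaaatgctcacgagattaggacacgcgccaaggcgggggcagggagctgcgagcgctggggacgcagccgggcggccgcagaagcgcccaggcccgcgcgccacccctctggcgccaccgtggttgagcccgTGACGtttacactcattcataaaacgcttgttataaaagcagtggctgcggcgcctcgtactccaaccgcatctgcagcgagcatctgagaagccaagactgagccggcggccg
FOSB: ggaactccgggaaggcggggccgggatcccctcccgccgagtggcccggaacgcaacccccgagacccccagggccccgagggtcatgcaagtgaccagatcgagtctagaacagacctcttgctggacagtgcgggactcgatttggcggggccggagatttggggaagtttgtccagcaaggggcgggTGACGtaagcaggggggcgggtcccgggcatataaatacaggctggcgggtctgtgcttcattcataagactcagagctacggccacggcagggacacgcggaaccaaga

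The TGACG core, searched on both strands, stood in 6 of the 10 windows (JUN, EGR1, NR4A3, FOS, JUNB and FOSB), against 24.6% of all 35116 RefSeq windows. NR4A3 held 4 copies, between 109 and 21 bases before its start. EGR1 held 2 copies, and FOS and FOSB held 1 each, beginning 64 bases before the start in FOS and 60 in FOSB. CArG boxes were found in the EGR1 window alone, where 2 lie between 105 and 74 bases before the start, and 1.29% of all windows held one. No window of the 10 held the full CRE TGACGTCA (1.85% of all windows), the AP-1 site TGANTCA (7.71%) or either EGR site GCGGGGGCG or GCGTGGGCG (5.77%). The full CRE contains the TGACG core. The 2 windows each of NR4A1 and ATF3 held none of these letters, and the NR4A2 and FOSL1 windows were not analysed here. For NR4A1 the windows are chr12:52022582-52022881 and chr12:52037465-52037764, and for ATF3 chr1:212565157-212565456 and chr1:212614768-212615067. Any other start of NR4A1 or ATF3 was not searched, and bases outside the windows were not searched for any gene. Each of the 10 genes, FOS included, may therefore hold such letters elsewhere. These matches describe letters in a short window, not binding.

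Total counts per library ran from 17978825 (mtAsn-1, replicate 2) to 37708993 (mtLys, replicate 1), and within groups the libraries' r across genes was 0.9925 to 0.9963. The asparagine tRNA gene TRNN had 1 to 6 counts in every library, too few to check the labels. The lysine tRNA gene TRNK had 7.25 to 8.18 counts per 1000000 total counts with mtLys and 5.82 to 6.72 in control. With mtAsn-1 it had 6.09 to 9.50 and with mtAsn-2 6.88 to 10.6. TRNK was thus not lower with mtLys than in control. Per 1000000 total counts, TRNN had 0.0706 to 0.242 with mtAsn-1, 0.0287 to 0.0951 with mtAsn-2, 0.0366 to 0.145 with mtLys and 0.106 to 0.193 in control. The mtAsn-2 libraries lay below control, but on too few counts to say that the target was lowered. Whether the libraries capture mature tRNA was not tested, so TRNK cannot check the labels either.

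The line's receptor markers were mixed. ESR1 was at or below 0.286 CPM and PGR was at 0 in 10 of 12 libraries, whereas ERBB2 lay between 89.3 and 119.5 CPM and GATA3 between 10.2 and 14.1 CPM. Given as log2 fold changes over control ± SE (edgeR), ERBB2 rose with mtAsn-1 (0.20 ± 0.0411, adjusted p = 0.000219), mtAsn-2 (0.39 ± 0.04, adjusted p = 2.8e-09) and mtLys (0.11 ± 0.0404, adjusted p = 0.0317). CDH1 reached at most 0.522 CPM. The mesenchymal marker CDH2 was also low, at most 0.647 CPM, and VIM was at least 2952.1 CPM in all libraries. The 8 mesenchymal and line markers summed to 7501.5 to 8189.1 CPM with mtAsn-1, 6323.9 to 6464.0 CPM with mtAsn-2, 7420.0 to 7888.6 with mtLys and 6397.8 to 6567.4 in control. With mtAsn-1, 4 of the 8 rose and 0 fell, with mtAsn-2 1 rose and 3 fell, and with mtLys 6 rose and 0 fell, where 23.9% to 27% of all genes fell and 24.1% to 24.6% rose in these comparisons. FN1 rose with mtAsn-1 (0.78 ± 0.122, adjusted p = 0.000653) and mtLys (0.79 ± 0.122, adjusted p = 0.000583), and gave 0.30 ± 0.122 with mtAsn-2 (adjusted p = 0.0663). The 9 receptor and luminal markers summed to 1048.8 to 1062.2 CPM with mtAsn-1, 864.7 to 916.0 CPM with mtAsn-2, 1077.9 to 1103.0 with mtLys and 1437.7 to 1529.2 in control, most of it KRT8 and KRT18. Of the 7 tested, 1 rose and 4 fell with mtAsn-1, 2 rose and 2 fell with mtAsn-2, and 1 rose and 2 fell with mtLys. KRT8 fell with mtAsn-1 (-0.69 ± 0.0382, adjusted p = 2.99e-14), mtAsn-2 (-1.12 ± 0.0384, adjusted p = 5.43e-19) and mtLys (-0.58 ± 0.038, adjusted p = 7.65e-13). The luminal sum was lower without overlap with control for every tRNA LNA, and the mesenchymal sum was higher without overlap for mtAsn-1 and mtLys.

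The 8 leukocyte markers summed to 195.2 to 202.8 CPM with mtAsn-1, 129.6 to 134.2 with mtAsn-2, 208.1 to 222.4 with mtLys and 140.5 to 144.0 in control, nearly all of it LAPTM5, with MS4A1 at 0 in all 12 libraries and CD3E at 0 in 11. The 7 fibroblast and endothelial markers summed to 22.9 to 25.9 CPM with mtAsn-1, 17 to 19.7 CPM with mtAsn-2, 25.1 to 27.4 with mtLys and 20.2 to 25.3 in control, with DCN at 0 in all 12. Nearly all of this sum was PECAM1 and PDGFRB. Given as log2 fold changes over control ± SE (edgeR), PECAM1 rose with mtAsn-1 (0.44 ± 0.0911, adjusted p = 0.000228) and mtLys (0.54 ± 0.0862, adjusted p = 7.76e-06). PECAM1 gave -0.13 ± 0.0905 with mtAsn-2 (adjusted p = 0.235). PDGFRB fell with mtAsn-1 (-0.415 ± 0.105, adjusted p = 0.00174), mtAsn-2 (-0.53 ± 0.0994, adjusted p = 5.88e-05) and mtLys (-0.32 ± 0.098, adjusted p = 0.00864). The 8 heat shock genes, which mark rough handling, summed to 4739.6 to 5251.9 CPM with mtAsn-1, 5022.1 to 5218.6 with mtAsn-2, 4995.1 to 5375.1 with mtLys and 5079.0 to 5501.4 in control, so their ranges overlapped. HSPA1A and HSPA1B were at 0 in all 12 libraries, so these 2 could not register handling. Most of the heat shock sum was HSPA8 (2097.1 to 2588.9 CPM) and HSP90AA1 (1697.7 to 2048.5 CPM). Of the 6 heat shock genes tested, 0 rose, while 1 was lower with mtAsn-1 and 2 were lower with each of the other LNAs. In these comparisons 23.9% to 27% of all genes fell and 24.1% to 24.6% rose. The part of these marker differences in the changes of the 10 genes was not tested.

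Within groups, 2 libraries stood at the edge for most of the 10 genes. Replicate 2 of mtAsn-1, the shallowest library, had the highest level of its group for 9 of the 10, with FOSB at the same printed value as replicate 3. Replicate 3 of control, the shallowest control library, had the lowest control level for 8 of the 10. Each was left out in turn, and calls lost without either are given beside the gene.

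Transcript levels spanned several orders of magnitude per length of exon. In control cells FOSL1 stood at 303.9 ± 13.7 CPM per kilobase of exon (SD, n = 3), far above the next gene. JUNB followed at 60.3 ± 6.96 and JUN at 52.6 ± 3.03, then EGR1 at 7.19 ± 0.552, ATF3 at 4.28 ± 0.835, FOS at 3.19 ± 0.434, NR4A2 at 2.98 ± 0.313, NR4A1 at 2.37 ± 0.393, FOSB at 1.35 ± 0.146 and NR4A3 at 0.459 ± 0.126. JUNB and JUN, ATF3 and FOS, FOS and NR4A2, and NR4A2 and NR4A1 lay within the sum of their SDs of each other, whereas the other neighbours in this order did not. The length is the union of all annotated exons, 8077 bases for NR4A1, so a level per kilobase is lower than a single shorter transcript would give.

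**Figure D1:**
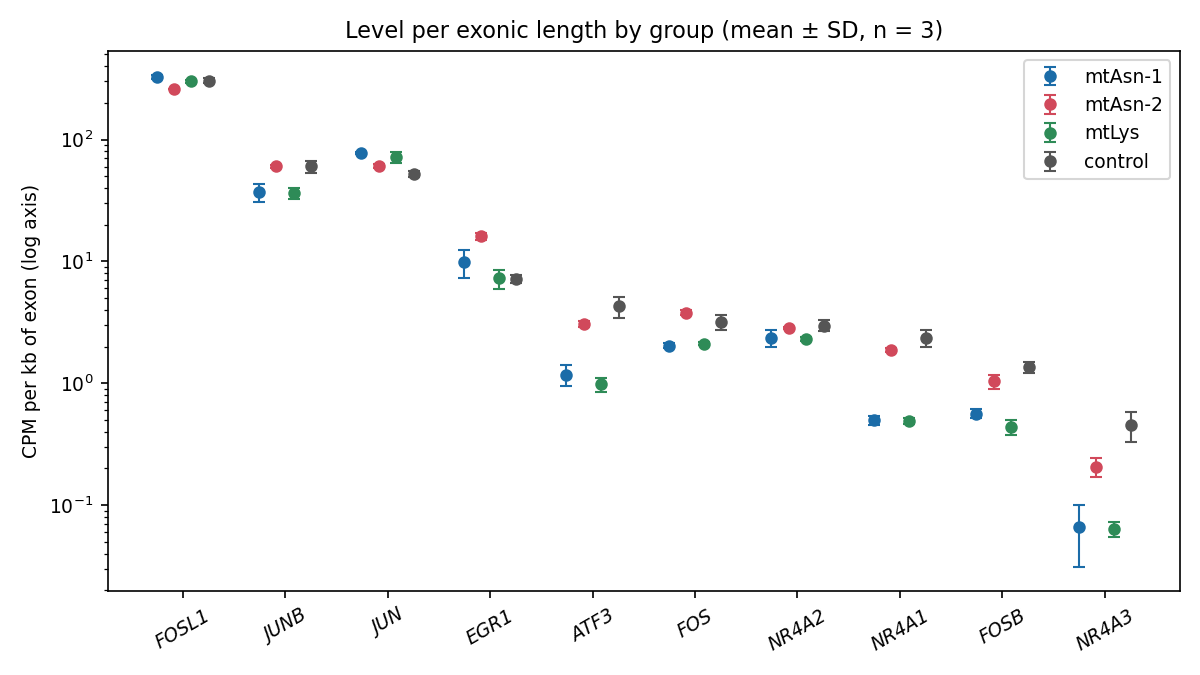
Mean level per exonic length (CPM per kb of exon, log axis) of the 10 genes in the mtAsn-1, mtAsn-2, mtLys and control groups, with bars for the SD over 3 libraries and genes ordered by their control level. FOSL1 stands highest in every group and NR4A3 lowest, and NR4A1, NR4A3, ATF3 and FOSB lie far lower with mtAsn-1 and mtLys than in control.

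The order changed between groups. With mtAsn-1, JUN stood at 77.2 ± 1.57 CPM per kilobase and JUNB at 37.1 ± 6.31, so that JUN lay above JUNB, and with mtLys JUN stood at 71.6 ± 7.73 and JUNB at 36.3 ± 3.72. With mtAsn-2, JUN and JUNB were level, at 60.5 ± 2.18 and 60.4 ± 1.90. ATF3, the fifth gene in control, stood at 1.18 ± 0.230 with mtAsn-1 and 0.984 ± 0.132 with mtLys, below both FOS and NR4A2 in those groups, and at 3.07 ± 0.147 with mtAsn-2. NR4A2 was the most abundant NR4A receptor per length in all 4 groups, at 2.37 ± 0.366, 2.84 ± 0.0664, 2.32 ± 0.0847 and 2.98 ± 0.313 with mtAsn-1, mtAsn-2, mtLys and control LNA, although it lay within the spread of NR4A1 in control. By CPM, NR4A1 lay above NR4A2 in control (19.1 against 10.5) and with mtAsn-2 (15.2 against 10.1). It lay below NR4A2 with mtAsn-1 (4.01 against 8.37) and mtLys (3.97 against 8.20). In control and with mtAsn-2 the order thus depends on the length used, 8077 bases for NR4A1 and 3541 for NR4A2.

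Against control, the mtAsn-1 and mtLys LNAs were each followed by lower levels of the 3 NR4A receptors, ATF3, FOS, FOSB and JUNB, while mtAsn-2 left most of them much nearer control. With mtAsn-1, 7 of the 10 fell and 2 (JUN and FOSL1) rose at an adjusted p under 0.05 (edgeR quasi-likelihood test), where 24.2% of all 16051 genes fell and 24.3% rose. With mtLys, 7 fell and 1 (JUN) rose, against 23.9% and 24.6% of all genes. With mtAsn-2, 5 fell (NR4A1, NR4A3, ATF3, FOSB and FOSL1) and 3 rose (EGR1, FOS and JUN), against 27% and 24.1% of all genes, so the share that rose was near the background. Their median log2 fold change was -0.69 for mtAsn-1, -0.15 for mtAsn-2 and -0.68 for mtLys, beside medians of -0.004, -0.007 and -0.001 over all genes tested. The 3 comparisons share the control libraries, and the LNAs are compared with each other directly further on. In bulk RNA, fewer cells that express a gene and less of its RNA per cell cannot be told apart.

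**Figure D2:**
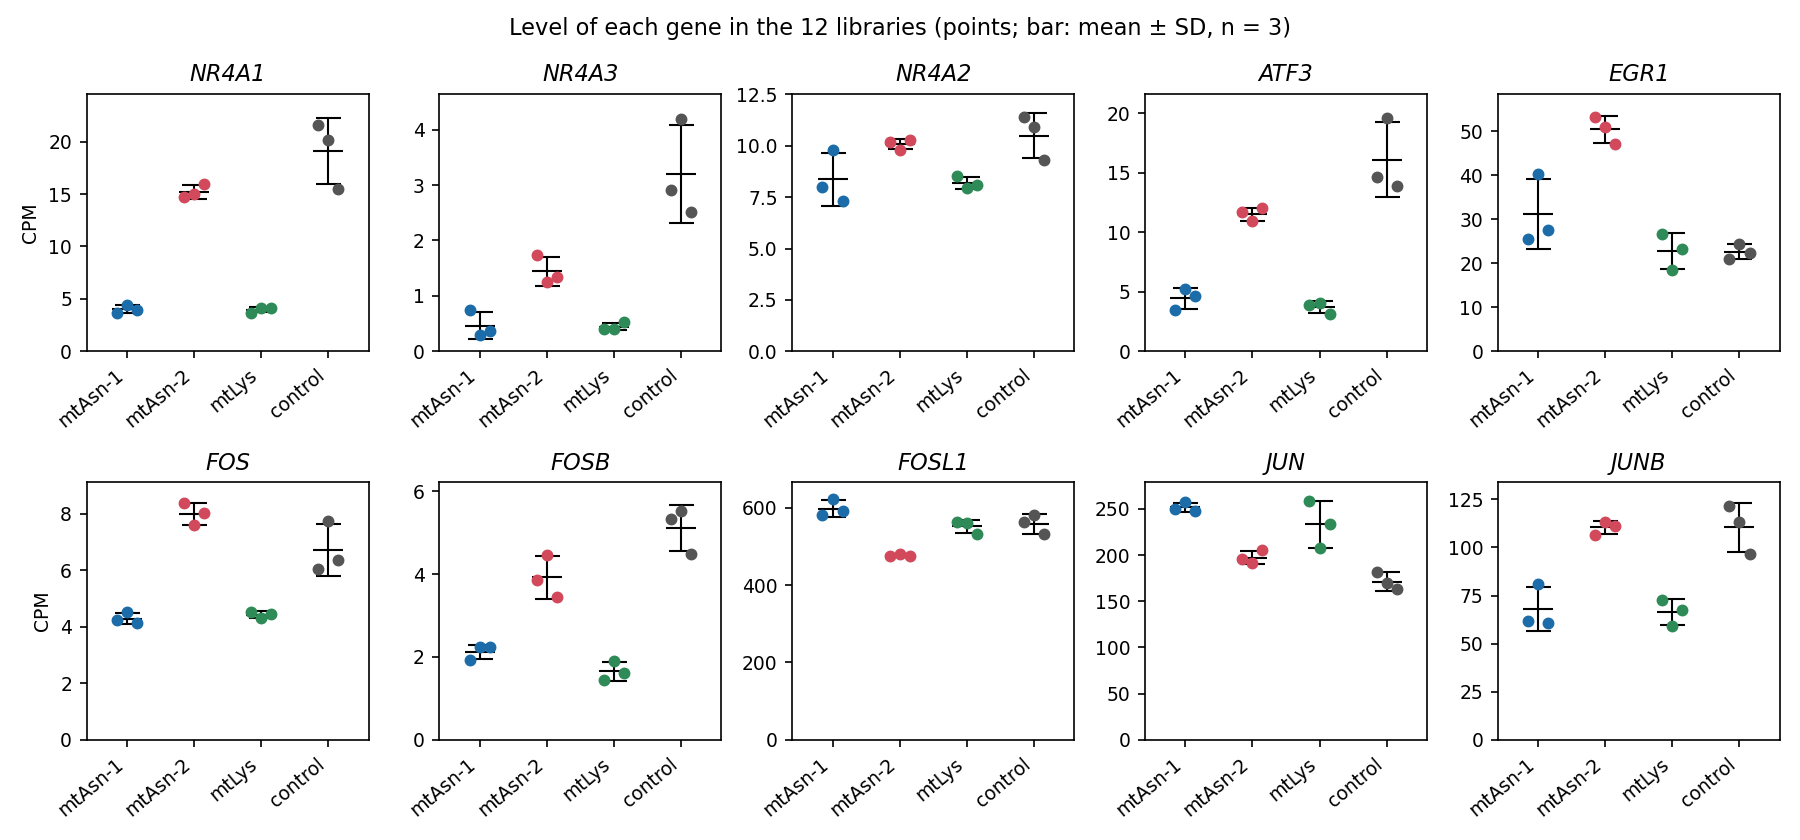
CPM of each of the 10 genes in every library of the mtAsn-1, mtAsn-2, mtLys and control groups, from 0 upward, with 1 point per library and bars for the mean ± SD over 3 libraries. NR4A1 sits between 3.69 and 4.40 CPM in all mtAsn-1 and mtLys libraries, against 15.5 to 21.6 CPM in control, and EGR1 is highest in the 3 mtAsn-2 libraries.

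NR4A1 (chromosome 12, 52022832 to 52059507, plus strand, hg38), known as Nur77, a receptor tied to apoptosis and metabolism, had 3.69, 4.40 and 3.95 CPM with mtAsn-1, 14.7, 15 and 16.0 CPM with mtAsn-2, 3.69, 4.10 and 4.13 with mtLys and 21.6, 20.2 and 15.5 in control. All mtAsn-1 and mtLys libraries lay below every control library, and the mtAsn-2 range reached into that of control. As a share of the control mean, mtAsn-1 gave 21.0%, mtAsn-2 79.6% and mtLys 20.8%. NR4A1 fell with mtAsn-1 (log2 fold change -2.27 ± 0.115, SE, adjusted p = 5.43e-15) and mtLys (-2.29 ± 0.106, adjusted p = 5.83e-16), the 87th and 70th lowest of 16051 fold changes. It fell far less with mtAsn-2 (-0.35 ± 0.0875, adjusted p = 0.00154). A gene on the opposite strand, LOC107984510, overlaps NR4A1 without sharing exonic bases and had at most 3 counts in a library.

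NR4A3 (chromosome 9, 99821855 to 99866893, plus strand), known as NOR-1, had the lowest levels of the 10 genes and the largest fold changes. It stood at 0.738, 0.286 and 0.359 CPM with mtAsn-1, 1.73, 1.25 and 1.34 CPM with mtAsn-2, 0.404, 0.410 and 0.521 with mtLys and 2.91, 4.19 and 2.51 in control. No tRNA LNA library reached the lowest control library, and the mtAsn-2 libraries stood between the others and control. NR4A3 fell with mtAsn-1 (log2 fold change -2.83 ± 0.273, SE, adjusted p = 1.6e-09), mtAsn-2 (-1.18 ± 0.196, adjusted p = 1.12e-05) and mtLys (-2.89 ± 0.247, adjusted p = 1.59e-10), and was the 37th lowest gene with mtAsn-1 and the 29th with mtLys. The mtAsn-1 libraries held only 15, 5 and 10 counts of it and the mtLys libraries 15, 14 and 14, which limits the precision of its fold change.

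NR4A2 (chromosome 2, 156324432 to 156332724, minus strand), known as Nurr1 and needed for dopamine neurons, moved little. It had 7.98, 9.82 and 7.32 CPM with mtAsn-1, 10.2, 9.80 and 10.3 CPM with mtAsn-2, 8.54, 7.96 and 8.11 with mtLys and 11.4, 10.9 and 9.29 in control. The mtLys libraries lay below control and the mtAsn-1 range overlapped it. NR4A2 fell with mtAsn-1 (log2 fold change -0.365 ± 0.102, SE, adjusted p = 0.00398) and mtLys (-0.37 ± 0.0957, adjusted p = 0.00196), and gave -0.08 ± 0.0928 with mtAsn-2 (adjusted p = 0.508, 95% interval -0.27 to 0.11). The mtAsn-1 call was lost without mtAsn-1 replicate 3 (adjusted p = 0.0597).

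ATF3 (chromosome 1, 212565334 to 212620777, plus strand), a leucine zipper factor induced by amino acid shortage and other stress, followed NR4A1. It had 3.50, 5.20 and 4.60 CPM with mtAsn-1, 11.7, 10.9 and 12 CPM with mtAsn-2, 3.91, 4.04 and 3.13 with mtLys and 14.6, 19.6 and 13.9 in control. All 9 tRNA LNA libraries lay below the control libraries, the mtAsn-1 and mtLys libraries by far. ATF3 fell with mtAsn-1 (log2 fold change -1.88 ± 0.14, SE, adjusted p = 3.34e-10), mtAsn-2 (-0.50 ± 0.112, adjusted p = 0.000807) and mtLys (-2.12 ± 0.133, adjusted p = 1.86e-11). Its mtAsn-2 change was -0.31 (adjusted p = 0.0161) without control replicate 2, the highest control library.

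Among the FOS family, FOSB (chromosome 19, 45467996 to 45475179, plus strand), an AP-1 subunit known for lasting induction in brain, fell most. It had 1.92, 2.23 and 2.23 CPM with mtAsn-1, 3.85, 4.46 and 3.44 CPM with mtAsn-2, 1.45, 1.90 and 1.60 with mtLys and 5.34, 5.52 and 4.49 in control, and no tRNA LNA library reached the control range. Its log2 fold change was -1.28 ± 0.153 with mtAsn-1 (SE, adjusted p = 7.32e-08), -0.40 ± 0.127 with mtAsn-2 (adjusted p = 0.00961) and -1.64 ± 0.147 with mtLys (adjusted p = 3.26e-10). The mtAsn-2 call was lost with DESeq2 (adjusted p = 0.0578), without control replicate 2 (0.0623) and without mtAsn-2 replicate 3 (0.059).

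FOS (chromosome 14, 75278828 to 75282230, plus strand), the founding AP-1 subunit, had 4.23, 4.51 and 4.13 CPM with mtAsn-1, 8.39, 7.62 and 8.03 CPM with mtAsn-2, 4.53, 4.30 and 4.46 with mtLys and 6.05, 7.76 and 6.36 in control. The mtAsn-1 and mtLys libraries lay below control without overlap, whereas the mtAsn-2 range overlapped its upper end. FOS fell with mtAsn-1 (log2 fold change -0.67 ± 0.118, SE, adjusted p = 2.99e-05) and mtLys (-0.61 ± 0.109, adjusted p = 3.17e-05). With mtAsn-2 it rose by a small amount (0.24 ± 0.0997, adjusted p = 0.043). That call was lost with DESeq2 (adjusted p = 0.111), without control replicate 1 (0.237) or 3 (0.124) and without mtAsn-2 replicate 1 (0.124) or 3 (0.0742), and the change was 0.38 (adjusted p = 0.00587) without control replicate 2.

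FOSL1 (chromosome 11, 65892049 to 65900526, minus strand), which encodes FRA-1, was the most abundant of the 10 genes, and its largest change against control was the smallest among them. It had 582.0, 621.7 and 590.6 CPM with mtAsn-1, 474.9, 479.6 and 475.7 CPM with mtAsn-2, 562.1, 560.5 and 532.4 with mtLys and 563.6, 580.8 and 531.1 in control. The mtAsn-2 libraries lay below all others, and the mtAsn-1 libraries lay just above control. FOSL1 fell with mtAsn-2 (log2 change -0.23 ± 0.0394, SE, adjusted p = 1.72e-05), gave -0.02 ± 0.0394 with mtLys (adjusted p = 0.734) and rose slightly with mtAsn-1 (0.10 ± 0.0395, adjusted p = 0.0413). The mtAsn-1 call was lost when both groups were fitted alone (adjusted p = 0.0593), without control replicate 1 (0.0552) or 3 (0.242) and without mtAsn-1 replicate 2 (0.163) or 3 (0.0576).

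The JUN family genes went opposite ways. JUN (chromosome 1, 58780791 to 58784047, minus strand), the main partner of FOS proteins and a target of the kinase JNK, had 250, 257.2 and 247.3 CPM with mtAsn-1, 195.2, 191.1 and 204.9 CPM with mtAsn-2, 258.2, 207.8 and 233.6 with mtLys and 182.1, 169.2 and 162.7 in control. Every tRNA LNA library lay above every control library. JUN rose with mtAsn-1 (log2 fold change 0.55 ± 0.0599, SE, adjusted p = 2.55e-07), mtAsn-2 (0.20 ± 0.0595, adjusted p = 0.00808) and mtLys (0.44 ± 0.0594, adjusted p = 3.9e-06).

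JUNB (chromosome 19, 12791486 to 12793315, plus strand), an AP-1 subunit that often opposes JUN in growth control, had 61.8, 81.2 and 60.6 CPM with mtAsn-1, 106.6, 113.4 and 111.4 CPM with mtAsn-2, 72.5, 59.0 and 67.5 with mtLys and 121.5, 113.1 and 96.5 in control. The mtAsn-1 and mtLys libraries lay below control, and the mtAsn-2 libraries lay inside its range. JUNB fell with mtAsn-1 (log2 fold change -0.715 ± 0.128, SE, adjusted p = 0.00129) and mtLys (-0.74 ± 0.125, adjusted p = 0.000876), and its 95% interval with mtAsn-2 ran from -0.28 to 0.27 (adjusted p = 0.983).

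EGR1 (chromosome 5, 138465479 to 138469303, plus strand), an early response factor best known as a target of serum response factor, did not follow the others. It had 25.6, 40.3 and 27.5 CPM with mtAsn-1, 53.2, 50.9 and 47.1 CPM with mtAsn-2, 26.6, 18.5 and 23.2 with mtLys and 20.9, 24.4 and 22.4 in control. The mtAsn-2 libraries lay above all others, at 223.4% of the control mean, and the mtLys range covered that of control. EGR1 rose with mtAsn-2 (log2 change 1.16 ± 0.175, SE, adjusted p = 0.000435), the 303rd highest of 16051, and gave 0.01 ± 0.187 with mtLys (adjusted p = 0.968). With mtAsn-1 all libraries lay above control, but the change of 0.44 ± 0.189 did not pass (adjusted p = 0.0853). It passed under a stricter filter on low counts (adjusted p = 0.0499), with DESeq2 (0.0424) and without mtAsn-1 replicate 1 (0.0471).

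**Figure D3:**
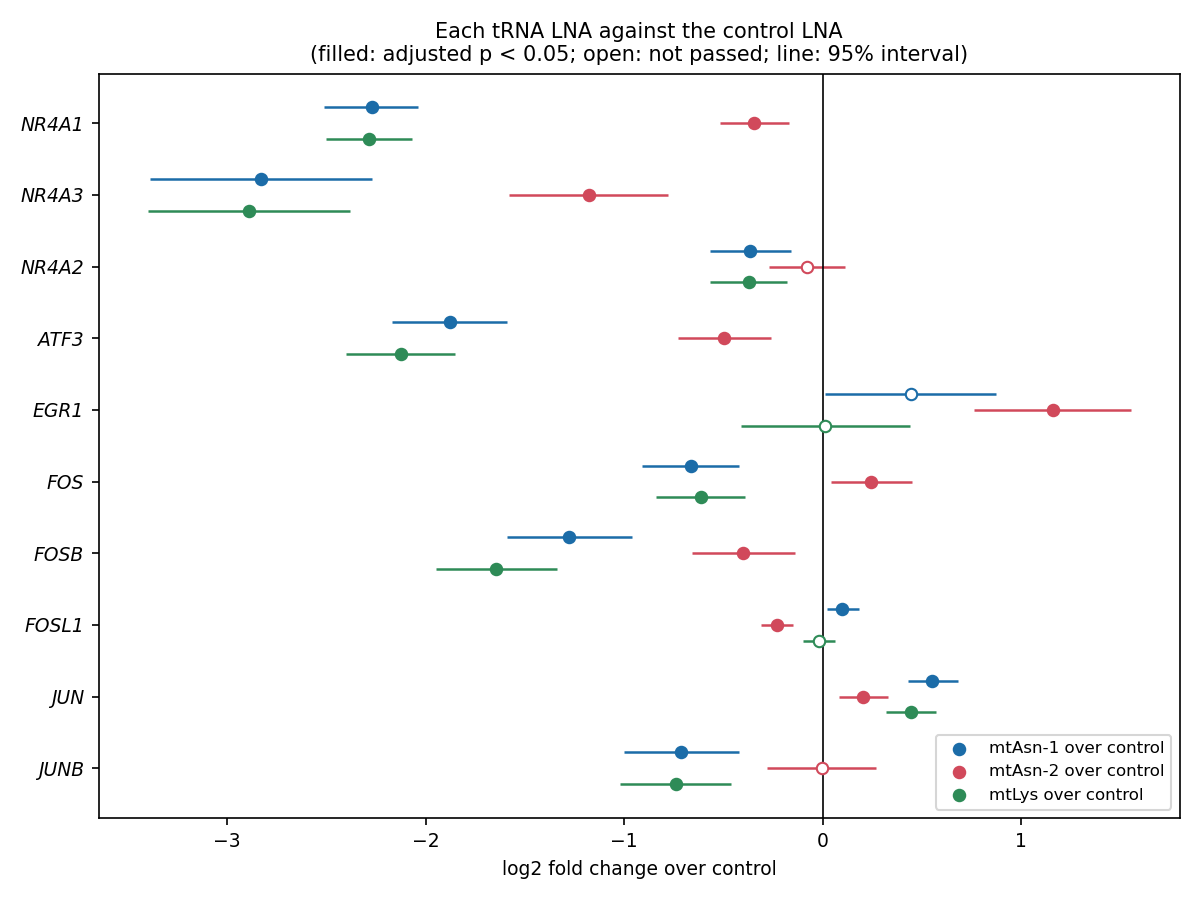
Log2 fold change of each gene over control (x axis) for mtAsn-1, mtAsn-2 and mtLys, with lines for the 95% interval, filled points for adjusted p under 0.05 and open points for genes that did not pass. NR4A1, NR4A3, ATF3 and FOSB lie far to the left with mtAsn-1 and mtLys, and FOS and JUNB lie to the left by less. EGR1 lies to the right with mtAsn-2 at 1.16.

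Set directly against each other, the LNAs split into mtAsn-1 and mtLys on one side and mtAsn-2 on the other. Between mtAsn-1 and mtAsn-2, which are named for the same tRNA, all 10 genes passed: 8 were lower with mtAsn-1 and 2 (JUN and FOSL1) were higher, against 21.9% and 24.6% of all genes tested. The differences were large for NR4A1 (log2 fold change -1.93 ± 0.115, SE, adjusted p = 7.06e-14), NR4A3 (-1.65 ± 0.306, adjusted p = 5.89e-05) and ATF3 (-1.38 ± 0.142, adjusted p = 4.88e-08). FOS (-0.91 ± 0.111, adjusted p = 1.08e-07), FOSB (-0.88 ± 0.154, 2.89e-05), EGR1 (-0.71 ± 0.172, 0.008) and JUNB (-0.71 ± 0.127, 0.00131) differed by less. NR4A2 differed least of the genes that were lower (-0.29 ± 0.0992, adjusted p = 0.019), and this call was lost without mtAsn-1 replicate 1 (adjusted p = 0.0662) or 3 (-0.19, adjusted p = 0.187). JUN was higher with mtAsn-1 by 0.35 ± 0.0591 (adjusted p = 6.25e-05) and FOSL1 by 0.33 ± 0.0395 (adjusted p = 8.5e-08). The libraries of both LNAs did not overlap for 9 of the 10 genes, NR4A2 being the exception, against 52.7% of all genes tested.

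Between mtAsn-2 and mtLys all 10 genes passed as well, 8 higher and 2 lower with mtAsn-2, against 22.9% and 25.7% of all genes tested. NR4A1 was higher by 1.94 ± 0.106 on the log2 scale (SE, adjusted p = 7.32e-15), NR4A3 by 1.71 ± 0.276 (8.15e-06), ATF3 by 1.63 ± 0.134 (1.33e-09), FOSB by 1.24 ± 0.148 (5.74e-08) and EGR1 by 1.15 ± 0.169 (0.000424). FOS (0.85 ± 0.102, adjusted p = 6.17e-08), JUNB (0.73 ± 0.123, 0.000835) and NR4A2 (0.29 ± 0.0927, 0.00986) were higher by less. JUN (-0.24 ± 0.0586, adjusted p = 0.00187) and FOSL1 (-0.21 ± 0.0393, 5.95e-05) were lower with mtAsn-2. The libraries of these groups did not overlap for any of the 10 genes, against 56.6% of all genes tested without overlap.

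Between mtAsn-1 and mtLys, named for different tRNAs, 0 of the 10 genes passed in either direction by edgeR and 0 by DESeq2, against 2.12% of all genes higher and 3.14% lower with mtAsn-1. At an unadjusted p under 0.05, 3 of the 10 differed, namely EGR1, FOSB and FOSL1, each higher with mtAsn-1, where 8.84% of all genes were higher and 9.45% lower at that threshold. The 95% interval of the log2 difference ran from -0.27 to 0.30 for NR4A1, -0.27 to 0.32 for JUNB, -0.20 to 0.22 for NR4A2, -0.30 to 0.20 for FOS and -0.02 to 0.23 for JUN. It was wider for NR4A3 (-0.74 to 0.86), ATF3 (-0.10 to 0.59), EGR1 (0.01 to 0.85) and FOSB (0.00 to 0.73), so the data allow differences of up to those sizes. The FOSL1 interval was narrow, 0.04 to 0.20, and lay above 0 (edgeR adjusted p = 0.0858). The libraries of these groups did not overlap for FOSB and FOSL1 and overlapped for the rest of the 10. The share of all genes without overlap was not computed for this pair. JUN passed without mtLys replicate 1, the highest mtLys library for JUN (log2 difference 0.19, adjusted p = 0.0361).

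**Figure D4:**
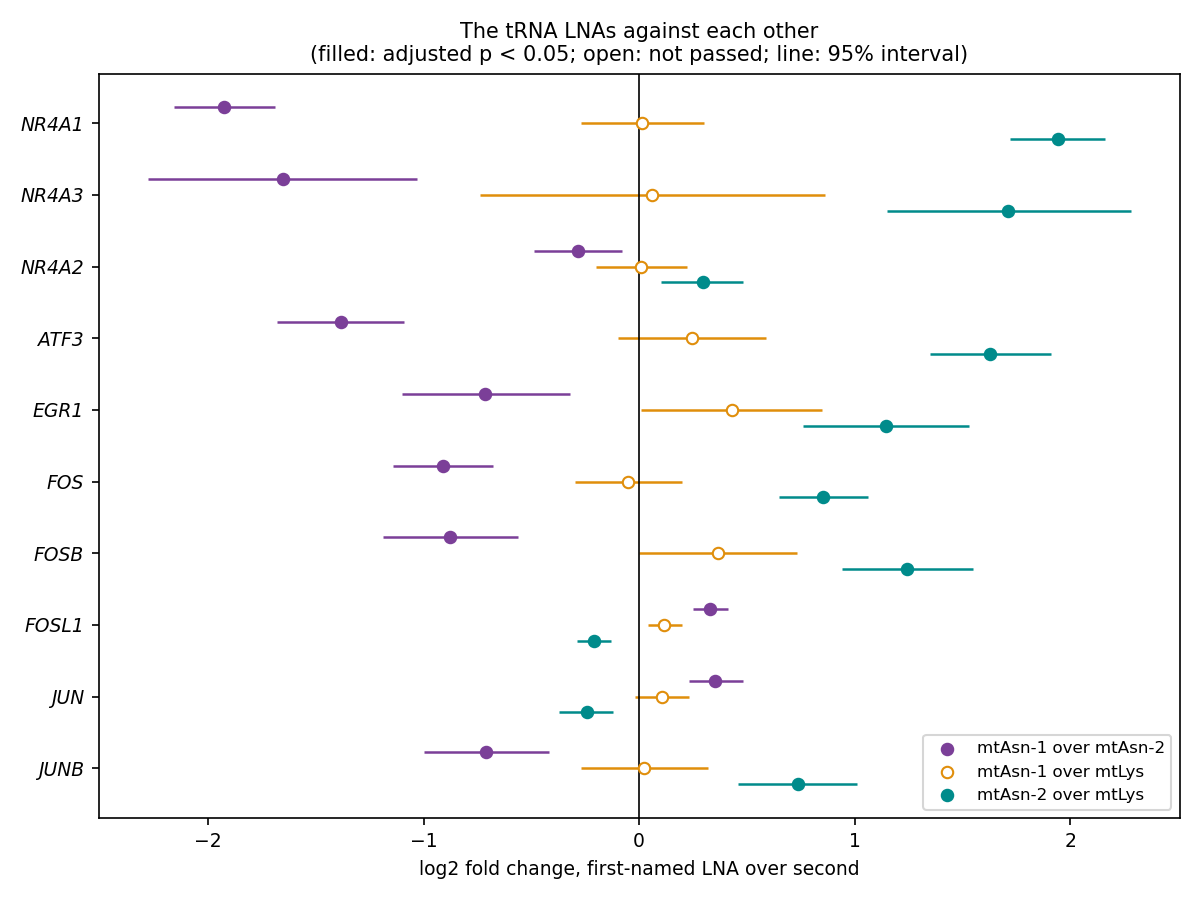
Log2 fold change of each gene between the tRNA LNAs (x axis, first-named LNA over the second) with lines for the 95% interval, filled points for adjusted p under 0.05 and open points for genes that did not pass. All 10 points of mtAsn-1 over mtLys are open, between -0.05 for FOS and 0.43 for EGR1, while mtAsn-1 over mtAsn-2 and mtAsn-2 over mtLys lie on opposite sides of 0, up to -1.93 and 1.94 for NR4A1.

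Across the 12 libraries the levels (log2 CPM) of most of the genes moved together. As a description, Pearson's r was 0.98 between NR4A1 and ATF3, 0.96 between NR4A1 and FOSB, 0.97 between ATF3 and FOSB, and 0.95 between NR4A1 and JUNB. JUN ran the other way, with r = -0.88 to NR4A1 and -0.90 to NR4A3. EGR1 was nearly unrelated to NR4A3 (0.02) and JUN (0.06) and related more to FOS (0.55), JUNB (0.44) and, inversely, FOSL1 (-0.59). These points share the 4 groups, so r mostly repeats the differences between group means.

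The genes outside the 10 whose levels ran most like theirs were found by the same r over 12 libraries, among genes with a mean log2 CPM of at least 2. NR4A1 was matched most closely by ZNF121 (0.992), BEX2 (0.989) and IFNLR1 (0.984). ZNF121 had 37.7, 72.1, 35.7 and 76.9 CPM with mtAsn-1, mtAsn-2, mtLys and control LNA. NR4A3 was matched by SMU1 (0.988), BLOC1S3 (0.976) and SNHG4 (0.975), and NR4A2 by SELENOM (0.951), PELI1 (0.929) and EIF3J-DT (0.928). ATF3 was matched by the glutamine and neutral amino acid transporter SLC1A5 (0.986), SNW1 (0.984) and the tRNA exportin XPOT (0.983). SLC1A5 averaged 347.8 CPM with mtAsn-1, 470.2 with mtAsn-2, 327.7 with mtLys and 508.8 in control. FOSB was also matched by XPOT (0.990), with the leucine zipper factor CEBPG (0.980) and OTUD3 (0.979), and FOS by the tryptophanyl-tRNA synthetase WARS1 (0.985), CA13 (0.978) and SLC25A45 (0.975). JUNB was matched by VHL (0.977), the immediate early gene IER2 (0.976) and SELENOM (0.966). JUN was matched by TMEM8B (0.985), SHISA3 (0.972) and the metallothionein MT1X (0.965), which averaged 117.7 CPM with mtAsn-1, 66.6 with mtAsn-2, 102.6 with mtLys and 46.1 in control. EGR1 was matched by the ribosomal protein genes RPL29 (0.967) and RPL26 (0.962) and by ADAM17 (0.960), and FOSL1 by MYDGF (0.968), LLGL1 (0.964) and TUBB-7 (0.964), a copy of the tubulin gene TUBB on an alternate locus.

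AU-rich elements, stretches in the 3′ untranslated region that speed mRNA decay, were counted because most immediate early mRNAs carry them. The longer element TATTTAT stood in 7 of the 10 genes (all but NR4A1, EGR1 and JUNB), against 28.2% of 18540 genes with an annotated 3′ region of at least 30 bases. The pentamer ATTTA occurred 6.20 times per kilobase in FOS and 5.39 in NR4A1, denser than in 93.8% and 91.4% of genes, and 0.810 times in EGR1, against a median of 1.39 over all genes. JUNB held 4.0, NR4A3 3.31, NR4A2 3.05, ATF3 2.45, JUN 2.33, FOSL1 1.5 and FOSB 1.39 per kilobase.

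Other genes of the same pathways are given by list, with the shares of all genes called beside the counts and with no test of any list, so nothing is said to be particular to one. Values in brackets are log2 fold changes over control ± SE with edgeR's adjusted p, and the median over all genes was -0.004 for mtAsn-1, -0.007 for mtAsn-2 and -0.001 for mtLys. Of 28 other immediate early genes tested, 13 fell and 4 rose with mtAsn-1 (against 24.2% and 24.3% of all genes), 13 fell and 7 rose with mtAsn-2 (against 27% and 24.1% of all genes), and 16 fell and 3 rose with mtLys (against 23.9% and 24.6% of all genes). The list's median log2 fold change was -0.15 for mtAsn-1, -0.21 for mtAsn-2 and -0.23 for mtLys. RHOB, a small GTPase, fell with mtAsn-1 (-0.64 ± 0.0555, adjusted p = 3.2e-10), mtAsn-2 (-0.32 ± 0.0534, adjusted p = 1.22e-05) and mtLys (-0.65 ± 0.0541, adjusted p = 1.49e-10). KLF4, a zinc finger factor, fell with mtAsn-1 (-0.68 ± 0.0581, adjusted p = 4.43e-10), mtAsn-2 (-0.515 ± 0.056, adjusted p = 2.05e-08) and mtLys (-0.53 ± 0.0562, adjusted p = 1.63e-08). TRIB1, a pseudokinase, fell with mtAsn-1 (-0.21 ± 0.07, adjusted p = 0.0132), mtAsn-2 (-0.59 ± 0.0685, adjusted p = 2.92e-08) and mtLys (-0.31 ± 0.0675, adjusted p = 0.000326). IER5 fell with mtAsn-1 (-0.52 ± 0.0526, adjusted p = 3.98e-09), mtAsn-2 (-0.39 ± 0.0509, adjusted p = 2.07e-07) and mtLys (-0.54 ± 0.0513, adjusted p = 1.05e-09). HBEGF, an EGF receptor ligand, had 77.7 ± 6.88 CPM with mtAsn-1, 111.0 ± 4.11 CPM with mtAsn-2, 82.9 ± 0.694 with mtLys and 66.2 ± 2.14 in control (SD, n = 3). HBEGF rose with mtAsn-1 (0.225 ± 0.0525, adjusted p = 0.000769), mtAsn-2 (0.745 ± 0.0505, adjusted p = 8.24e-13) and mtLys (0.32 ± 0.0511, adjusted p = 6.06e-06). MYC rose with mtAsn-1 (0.27 ± 0.044, adjusted p = 8.23e-06), mtAsn-2 (0.49 ± 0.043, adjusted p = 1.38e-10) and mtLys (0.20 ± 0.0433, adjusted p = 0.000336). PHLDA1 rose with mtAsn-1 (0.325 ± 0.04, adjusted p = 1.14e-07), and gave 0.08 ± 0.0399 with mtAsn-2 (adjusted p = 0.0836) and 0.07 ± 0.0399 with mtLys (adjusted p = 0.134). The kinase gene PLK3 rose with mtAsn-1 (0.50 ± 0.0701, adjusted p = 8.69e-07), mtAsn-2 (0.45 ± 0.0674, adjusted p = 2.07e-06) and mtLys (0.41 ± 0.0678, adjusted p = 1.38e-05). Between mtAsn-2 and mtLys, 13 of the 28 were higher and 4 lower with mtAsn-2, against 22.9% and 25.7% of all genes. Between mtAsn-1 and mtLys, 2 were higher and 1 lower with mtAsn-1, against 2.12% and 3.14%.

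Of 12 AP-1 dimer partners tested, 3 fell and 2 rose with mtAsn-1 (against 24.2% and 24.3% of all genes), 4 fell and 3 rose with mtAsn-2 (against 27% and 24.1% of all genes), and 5 fell and 0 rose with mtLys (against 23.9% and 24.6% of all genes). The median of this list's log2 fold changes was -0.15 for mtAsn-1, -0.01 for mtAsn-2 and -0.17 for mtLys. FOSL2, the fourth FOS family gene, had 277.0 ± 4.88 CPM with mtAsn-1, 282.7 ± 5.83 CPM with mtAsn-2, 281.9 ± 3.72 with mtLys and 411.4 ± 10.7 in control (SD, n = 3). FOSL2 fell with mtAsn-1 (-0.57 ± 0.0368, adjusted p = 6.02e-13), mtAsn-2 (-0.54 ± 0.0365, adjusted p = 7.36e-13) and mtLys (-0.55 ± 0.0365, adjusted p = 1.03e-12). It did not pass between the asparagine LNAs (mtAsn-1 over mtAsn-2 log2 fold change -0.03, adjusted p = 0.545, 95% interval -0.10 to 0.05). JDP2, an AP-1 repressor, fell with mtAsn-1 (-0.65 ± 0.095, adjusted p = 1.87e-06), mtAsn-2 (-0.23 ± 0.0861, adjusted p = 0.0263) and mtLys (-0.95 ± 0.0919, adjusted p = 1.45e-09). ATF2 fell with mtAsn-2 (-0.43 ± 0.0562, adjusted p = 2.7e-07), and gave -0.13 ± 0.0575 with mtAsn-1 (adjusted p = 0.0597) and -0.13 ± 0.0554 with mtLys (adjusted p = 0.0539). BATF3 rose with mtAsn-1 (0.35 ± 0.131, adjusted p = 0.0265) and mtAsn-2 (0.78 ± 0.118, adjusted p = 2.36e-06), and gave 0.08 ± 0.126 with mtLys (adjusted p = 0.627). MAFK rose with mtAsn-2 (0.33 ± 0.0591, adjusted p = 5.48e-05), fell with mtLys (-0.18 ± 0.0602, adjusted p = 0.0155), and gave -0.11 ± 0.0616 with mtAsn-1 (adjusted p = 0.144).

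Of 8 stress leucine zipper factors tested, 4 fell and 1 rose with mtAsn-1 (against 24.2% and 24.3% of all genes), 3 fell and 1 rose with mtAsn-2 (against 27% and 24.1% of all genes), and 6 fell and 0 rose with mtLys (against 23.9% and 24.6% of all genes). The median log2 fold change over these genes was -0.20 for mtAsn-1, -0.09 for mtAsn-2 and -0.39 for mtLys. CEBPG, an ATF4 partner, had 55.7 ± 1.34 CPM with mtAsn-1, 70.5 ± 2.32 CPM with mtAsn-2, 49.8 ± 0.539 with mtLys and 84.3 ± 4.95 in control (SD, n = 3). CEBPG fell with mtAsn-1 (-0.60 ± 0.049, adjusted p = 5.48e-11), mtAsn-2 (-0.26 ± 0.0467, adjusted p = 2.95e-05) and mtLys (-0.76 ± 0.0479, adjusted p = 2.79e-13). ATF4, which drives ATF3 in the amino acid response, had 458.5 ± 7.96 CPM with mtAsn-1, 523.6 ± 10.5 CPM with mtAsn-2, 412.6 ± 3.98 with mtLys and 557.4 ± 13.3 in control (SD, n = 3). ATF4 fell with mtAsn-1 (-0.28 ± 0.0359, adjusted p = 2e-07), mtAsn-2 (-0.09 ± 0.0356, adjusted p = 0.0347) and mtLys (-0.43 ± 0.0358, adjusted p = 6.31e-11). DDIT3, a stress factor also called CHOP, fell with mtAsn-1 (-0.25 ± 0.0595, adjusted p = 0.00103) and mtLys (-0.57 ± 0.0583, adjusted p = 3.64e-09) and rose with mtAsn-2 (0.14 ± 0.0557, adjusted p = 0.0333). XBP1 fell with mtAsn-1 (-0.23 ± 0.0473, adjusted p = 0.000224), mtAsn-2 (-0.22 ± 0.0461, adjusted p = 0.000174) and mtLys (-0.26 ± 0.0463, adjusted p = 3.09e-05). NFIL3 rose with mtAsn-1 (0.19 ± 0.0677, adjusted p = 0.0196), and gave -0.13 ± 0.0662 with mtAsn-2 (adjusted p = 0.0992) and 0.12 ± 0.0654 with mtLys (adjusted p = 0.137).

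The upstream regulators moved both ways. Of 6 serum response factor and cofactor genes, 2 fell and 2 rose with mtAsn-1 (against 24.2% and 24.3% of all genes), 1 fell and 0 rose with mtAsn-2 (against 27% and 24.1% of all genes), and 3 fell and 1 rose with mtLys (against 23.9% and 24.6% of all genes). On the log2 scale the list's median fold change was 0.03 for mtAsn-1, -0.00 for mtAsn-2 and -0.04 for mtLys. ELK4, a cofactor of serum response factor, fell with mtAsn-1 (-0.41 ± 0.0584, adjusted p = 1.42e-06), mtAsn-2 (-0.43 ± 0.0561, adjusted p = 2.79e-07) and mtLys (-0.49 ± 0.0565, adjusted p = 3.71e-08). SRF itself fell with mtAsn-1 (-0.19 ± 0.049, adjusted p = 0.00221) and mtLys (-0.19 ± 0.0481, adjusted p = 0.0015), and gave -0.02 ± 0.0478 with mtAsn-2 (adjusted p = 0.74). ELK3 rose with mtAsn-1 (0.45 ± 0.0413, adjusted p = 6.47e-10) and mtLys (0.34 ± 0.0408, adjusted p = 7.19e-08), and gave -0.00 ± 0.0411 with mtAsn-2 (adjusted p = 0.975). MRTFB rose with mtAsn-1 (0.18 ± 0.0572, adjusted p = 0.012), and gave -0.01 ± 0.0555 with mtAsn-2 (adjusted p = 0.927) and 0.05 ± 0.0555 with mtLys (adjusted p = 0.454).

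Of 10 CREB family and coactivator genes, 5 fell and 1 rose with mtAsn-1 (against 24.2% and 24.3% of all genes), 5 fell and 2 rose with mtAsn-2 (against 27% and 24.1% of all genes), and 5 fell and 1 rose with mtLys (against 23.9% and 24.6% of all genes). The list's median log2 fold change was -0.08 for mtAsn-1, -0.13 for mtAsn-2 and -0.09 for mtLys. CREB5 rose with mtAsn-1 (0.91 ± 0.103, adjusted p = 2.35e-08), mtAsn-2 (0.74 ± 0.0988, adjusted p = 3.26e-07) and mtLys (0.80 ± 0.0986, adjusted p = 1.09e-07). The coactivator gene EP300 fell with mtAsn-1 (-0.42 ± 0.0496, adjusted p = 4.81e-08), mtAsn-2 (-0.61 ± 0.0488, adjusted p = 2.54e-11) and mtLys (-0.36 ± 0.0485, adjusted p = 5.83e-07). Its relative CREBBP fell with mtAsn-1 (-0.305 ± 0.0665, adjusted p = 0.000915), mtAsn-2 (-0.46 ± 0.0655, adjusted p = 8.92e-06) and mtLys (-0.31 ± 0.0653, adjusted p = 0.000662). CRTC2, a CREB coactivator, fell with mtAsn-1 (-0.29 ± 0.0423, adjusted p = 2.01e-06), mtAsn-2 (-0.20 ± 0.0415, adjusted p = 0.00016) and mtLys (-0.22 ± 0.0415, adjusted p = 6.63e-05). CRTC1 rose with mtAsn-2 (0.25 ± 0.0591, adjusted p = 0.000931), and gave 0.09 ± 0.0619 with mtAsn-1 (adjusted p = 0.224) and 0.10 ± 0.0597 with mtLys (adjusted p = 0.156).

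Of 13 ERK cascade genes, 3 fell and 6 rose with mtAsn-1 (against 24.2% and 24.3% of all genes), 2 fell and 5 rose with mtAsn-2 (against 27% and 24.1% of all genes), and 2 fell and 6 rose with mtLys (against 23.9% and 24.6% of all genes). The median of this list's log2 fold changes was 0.05 for mtAsn-1, 0.03 for mtAsn-2 and 0.06 for mtLys. MAPK3, which encodes ERK1, had 58.4 ± 4.64 CPM with mtAsn-1, 45.1 ± 1.71 CPM with mtAsn-2, 52.4 ± 1.15 with mtLys and 36.9 ± 2.33 in control (SD, n = 3). MAPK3 rose with mtAsn-1 (0.66 ± 0.0582, adjusted p = 2.43e-10), mtAsn-2 (0.29 ± 0.0573, adjusted p = 9.31e-05) and mtLys (0.51 ± 0.0569, adjusted p = 2.03e-08). RPS6KA2, a kinase gene downstream of ERK, rose with mtAsn-1 (0.72 ± 0.0969, adjusted p = 1.05e-06) and mtLys (0.40 ± 0.095, adjusted p = 0.00122), and gave -0.14 ± 0.0987 with mtAsn-2 (adjusted p = 0.237). Its relative RPS6KA3 fell with mtAsn-1 (-0.18 ± 0.0459, adjusted p = 0.00156), mtAsn-2 (-0.32 ± 0.045, adjusted p = 9.07e-07) and mtLys (-0.15 ± 0.0448, adjusted p = 0.00594). MAP2K1 rose with mtAsn-1 (0.17 ± 0.0425, adjusted p = 0.00126) and mtLys (0.17 ± 0.0415, adjusted p = 0.00101), and gave 0.01 ± 0.0417 with mtAsn-2 (adjusted p = 0.902). NRAS fell with mtAsn-1 (-0.27 ± 0.0518, adjusted p = 0.000109) and mtLys (-0.18 ± 0.0506, adjusted p = 0.00414) and rose with mtAsn-2 (0.15 ± 0.0501, adjusted p = 0.0114).

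Of 13 JNK and p38 kinase genes, 4 fell and 5 rose with mtAsn-1 (against 24.2% and 24.3% of all genes), 6 fell and 5 rose with mtAsn-2 (against 27% and 24.1% of all genes), and 4 fell and 6 rose with mtLys (against 23.9% and 24.6% of all genes). The median log2 fold change over these genes was 0.05 for mtAsn-1, -0.11 for mtAsn-2 and 0.06 for mtLys. MAPK9, which encodes JNK2 and so a kinase of JUN, rose with mtAsn-1 (0.46 ± 0.0438, adjusted p = 1.1e-09), mtAsn-2 (0.32 ± 0.043, adjusted p = 4.92e-07) and mtLys (0.40 ± 0.043, adjusted p = 9.6e-09). MAP3K5 rose with mtAsn-1 (0.625 ± 0.0657, adjusted p = 7.15e-09), mtAsn-2 (0.505 ± 0.0634, adjusted p = 1.27e-07) and mtLys (0.49 ± 0.0637, adjusted p = 2.79e-07). MAP3K1 fell with mtAsn-1 (-0.44 ± 0.0611, adjusted p = 7.75e-07), mtAsn-2 (-0.52 ± 0.0585, adjusted p = 2.01e-08) and mtLys (-0.265 ± 0.0578, adjusted p = 0.000382). MAPK11 fell with mtAsn-1 (-0.39 ± 0.0846, adjusted p = 0.000316), mtAsn-2 (-0.33 ± 0.0791, adjusted p = 0.0008) and mtLys (-0.40 ± 0.0799, adjusted p = 0.00013). MAP2K4 fell with mtAsn-2 (-0.28 ± 0.0502, adjusted p = 3.41e-05), and gave -0.01 ± 0.0513 with mtAsn-1 (adjusted p = 0.908) and 0.06 ± 0.0495 with mtLys (adjusted p = 0.365). MAPK12 fell with mtAsn-1 (-0.19 ± 0.0581, adjusted p = 0.0068), mtAsn-2 (-0.22 ± 0.0557, adjusted p = 0.00133) and mtLys (-0.29 ± 0.0561, adjusted p = 0.000105). These are transcript levels and say nothing of kinase activity.

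Of 11 NR4A and EGR partner and corepressor genes, 3 fell and 4 rose with mtAsn-1 (against 24.2% and 24.3% of all genes), 5 fell and 1 rose with mtAsn-2 (against 27% and 24.1% of all genes), and 2 fell and 1 rose with mtLys (against 23.9% and 24.6% of all genes). On the log2 scale the list's median fold change was -0.08 for mtAsn-1, -0.05 for mtAsn-2 and -0.07 for mtLys. RXRA, the dimer partner of NR4A1 and NR4A2, had 173.5 ± 4.18 CPM with mtAsn-1, 103.1 ± 5.24 CPM with mtAsn-2, 169.0 ± 4.25 with mtLys and 157.8 ± 9.88 in control (SD, n = 3). RXRA rose with mtAsn-1 (0.14 ± 0.046, adjusted p = 0.0129), fell with mtAsn-2 (-0.61 ± 0.0462, adjusted p = 7.8e-12), and gave 0.10 ± 0.0454 with mtLys (adjusted p = 0.0652). NAB2, an EGR1 corepressor that EGR1 itself induces, rose with mtAsn-1 (0.17 ± 0.0696, adjusted p = 0.0489) and mtAsn-2 (0.34 ± 0.0664, adjusted p = 0.000124), and gave 0.05 ± 0.0675 with mtLys (adjusted p = 0.566). NAB1 fell with mtAsn-1 (-0.20 ± 0.0521, adjusted p = 0.0019), mtAsn-2 (-0.54 ± 0.0511, adjusted p = 6.31e-10) and mtLys (-0.205 ± 0.0503, adjusted p = 0.00126). The corepressor gene NCOR1 fell with mtAsn-2 (-0.61 ± 0.0395, adjusted p = 3.55e-13), and gave -0.08 ± 0.0396 with mtAsn-1 (adjusted p = 0.0855) and -0.09 ± 0.039 with mtLys (adjusted p = 0.0663). KDM1A fell with mtAsn-1 (-0.16 ± 0.0404, adjusted p = 0.00189) and mtLys (-0.21 ± 0.0399, adjusted p = 8.5e-05), and gave -0.05 ± 0.0397 with mtAsn-2 (adjusted p = 0.34). NR2F2 fell with mtAsn-1 (-0.25 ± 0.057, adjusted p = 0.000893) and mtAsn-2 (-0.65 ± 0.0567, adjusted p = 2.29e-09), and gave -0.135 ± 0.056 with mtLys (adjusted p = 0.0507).

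Of 14 genes for AU-rich element mRNA decay, 6 fell and 3 rose with mtAsn-1 (against 24.2% and 24.3% of all genes), 9 fell and 2 rose with mtAsn-2 (against 27% and 24.1% of all genes), and 6 fell and 1 rose with mtLys (against 23.9% and 24.6% of all genes). The list's median log2 fold change was -0.10 for mtAsn-1, -0.25 for mtAsn-2 and -0.10 for mtLys. TOB1, which recruits deadenylases, had 21.2 ± 1.36 CPM with mtAsn-1, 24.6 ± 1.34 CPM with mtAsn-2, 23.0 ± 1.29 with mtLys and 44.4 ± 1.15 in control (SD, n = 3). TOB1 fell with mtAsn-1 (-1.06 ± 0.0631, adjusted p = 1.03e-13), mtAsn-2 (-0.85 ± 0.0588, adjusted p = 1.3e-12) and mtLys (-0.95 ± 0.0595, adjusted p = 2.7e-13). ZFP36L2, which binds AU-rich elements, fell with mtAsn-1 (-0.55 ± 0.0574, adjusted p = 6.35e-09), mtAsn-2 (-0.29 ± 0.0541, adjusted p = 6.13e-05) and mtLys (-0.44 ± 0.0548, adjusted p = 1.27e-07). Its relative ZFP36L1 rose with mtAsn-1 (0.25 ± 0.0552, adjusted p = 0.000675), fell with mtAsn-2 (-0.405 ± 0.0553, adjusted p = 2.7e-06), and gave 0.12 ± 0.0549 with mtLys (adjusted p = 0.0739). TIAL1 fell with mtAsn-1 (-0.17 ± 0.0404, adjusted p = 0.000741), mtAsn-2 (-0.42 ± 0.0399, adjusted p = 9.4e-10) and mtLys (-0.10 ± 0.0396, adjusted p = 0.0355). HNRNPD rose with mtAsn-1 (0.27 ± 0.0398, adjusted p = 2.56e-06) and mtLys (0.205 ± 0.0395, adjusted p = 8.74e-05), and gave 0.07 ± 0.0395 with mtAsn-2 (adjusted p = 0.138). KHSRP rose with mtAsn-1 (0.11 ± 0.0376, adjusted p = 0.021) and mtAsn-2 (0.20 ± 0.0374, adjusted p = 6.65e-05), and gave -0.01 ± 0.0374 with mtLys (adjusted p = 0.812). BTG2, a low gene at 0.613 ± 0.206 CPM with mtAsn-1, 1.21 ± 0.338 CPM with mtAsn-2, 0.330 ± 0.166 with mtLys and 0.501 ± 0.281 in control (SD, n = 3), rose with mtAsn-2 (1.39 ± 0.344, adjusted p = 0.00153), and gave 0.36 ± 0.435 with mtAsn-1 (adjusted p = 0.517) and -0.42 ± 0.448 with mtLys (adjusted p = 0.47).

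Of 18 AP-1 target genes, 2 fell and 14 rose with mtAsn-1 (against 24.2% and 24.3% of all genes), 3 fell and 11 rose with mtAsn-2 (against 27% and 24.1% of all genes), and 2 fell and 13 rose with mtLys (against 23.9% and 24.6% of all genes). The median of this list's log2 fold changes was 0.44 for mtAsn-1, 0.39 for mtAsn-2 and 0.37 for mtLys. HMGA2, a chromatin protein gene and FOSL1 target, had 153.5 ± 3.16 CPM with mtAsn-1, 104.1 ± 0.644 CPM with mtAsn-2, 141.9 ± 4.89 with mtLys and 93.6 ± 4.60 in control (SD, n = 3). HMGA2 rose with mtAsn-1 (0.71 ± 0.0431, adjusted p = 1.61e-13), mtAsn-2 (0.15 ± 0.0429, adjusted p = 0.00387) and mtLys (0.60 ± 0.0426, adjusted p = 3.57e-12). The matrix protease gene MMP14 rose with mtAsn-1 (0.60 ± 0.0438, adjusted p = 6.04e-12) and mtLys (0.45 ± 0.0436, adjusted p = 1.35e-09) and fell with mtAsn-2 (-0.23 ± 0.0437, adjusted p = 5.56e-05). The cytokine gene IL6 had 11.8 ± 1.75 CPM with mtAsn-1, 22.8 ± 1.88 CPM with mtAsn-2, 11.3 ± 1.26 with mtLys and 7.18 ± 1.13 in control (SD, n = 3). IL6 rose with mtAsn-1 (0.68 ± 0.121, adjusted p = 5.3e-05), mtAsn-2 (1.64 ± 0.106, adjusted p = 5.35e-12) and mtLys (0.63 ± 0.115, adjusted p = 6.78e-05). EREG, an EGF receptor ligand gene, rose with mtAsn-1 (0.52 ± 0.0452, adjusted p = 1.81e-10), mtAsn-2 (0.465 ± 0.0444, adjusted p = 8.32e-10) and mtLys (0.47 ± 0.0444, adjusted p = 9.1e-10). The cyclin gene CCND1 fell with mtAsn-1 (-0.63 ± 0.0449, adjusted p = 5.43e-12), mtAsn-2 (-0.82 ± 0.0449, adjusted p = 1.01e-14) and mtLys (-0.54 ± 0.0447, adjusted p = 7.47e-11). TIMP1 fell with mtAsn-1 (-0.25 ± 0.0416, adjusted p = 1.19e-05), mtAsn-2 (-0.52 ± 0.0414, adjusted p = 2.49e-11) and mtLys (-0.22 ± 0.0412, adjusted p = 8e-05). HBEGF belongs to this list and to the immediate early genes.

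**Figure D5:**
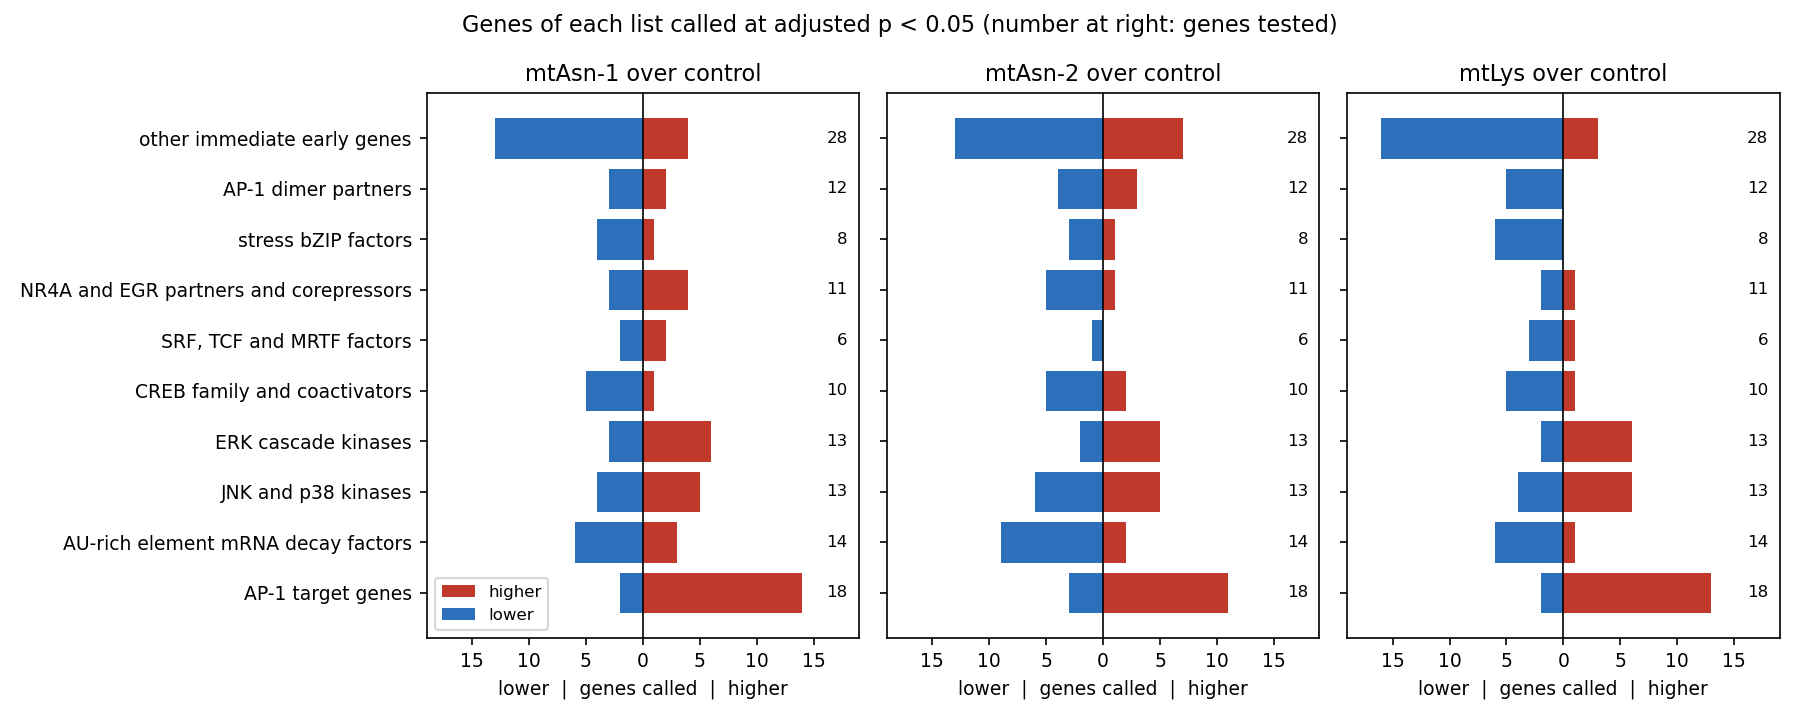
Number of genes of each list that were lower (left, blue) or higher (right, red) than control at an adjusted p under 0.05, with mtAsn-1, mtAsn-2 and mtLys in separate panels and the number of genes tested at the right. Other immediate early genes were more often lower, 13, 13 and 16 of 28, and AP-1 target genes mostly higher, 14, 11 and 13 of 18.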

How the data were processed

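The authors deposited raw counts of reads per gene for 12 libraries in 1 table, with gene positions and exonic lengths. Per the labels' protocols, cells were transfected with a lipid reagent, RNA was extracted with a Norgen kit and libraries were made with the TruSeq RNA Library Kit v2. Per the submitters' processing notes, FastQC, STAR 2.6.0a, featureCounts and DESeq2 were used with build hg38, with no role given for each. Whether counting used strand, and how multiply mapped reads were treated, was not given in the sources used here. Of 52897 lines, 52859 genes were used. Lines of 12 genes were broken and left out with 26 fragments, none of them among the 10 genes described.

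The test was edgeR 4.0.16 (R 4.3.3). Genes were kept by filterByExpr at a minimum count of 10 and total of 15, libraries were scaled by TMM, and quasi-likelihood F tests were run in robust mode with group as the only term in 1 fit of all 12 libraries, adjusted by Benjamini-Hochberg over the 16051 genes tested within each of 6 comparisons, at a threshold of 0.05. The pipeline was tested on simulated data. Total counts of 17978825 to 37708993 per library and edgeR's common biological variation (coefficient 0.0421) set the precision. A level is CPM on TMM-scaled library size, and log2 CPM used a prior count of 2. SD is over 3 libraries. The SE is the size of the log2 fold change divided by the root of F, and 95% intervals use the fit's degrees of freedom. Replicates were compared within groups, and no library was a copy of another of its group (chi-square per gene at least 2.33). Alternatives were RLE factors, no filter, a stricter filter, the replicate block, the compared groups alone, DESeq2 1.42.0 and each library left out.

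The 10 genes and the lists were chosen with earlier results of these data known, and no list was tested as a set. Named beside the 10 genes were, per list and control comparison, up to 2 higher and 2 lower genes with the smallest adjusted p, each then given for all 3 LNAs, and for each of the 10 the 3 most similar genes by r. Some genes that this rule selects are not reported here. Marker lists are given as sums, with examples chosen after their values were seen. FOSL2 between LNAs was also named after their values were seen. Promoters came from RefSeq and 3′ regions from GENCODE release 29 annotation of the same build. Figures used matplotlib 3.10.9 in Python 3.11.15.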

Additional observations from a re-analysis of the deposited data

How the results depend on the processing

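Of the 60 fold changes (10 genes in 6 comparisons), 45 passed. Over 800 values of these 45 under the alternatives, 0 turned direction and 17 lost the call, in 5 results: NR4A2 and FOSL1 with mtAsn-1, FOS and FOSB with mtAsn-2, and NR4A2 between mtAsn-1 and mtAsn-2. With mtAsn-1, 1 of the 10 genes was higher when the groups were fitted alone and 1 to 3 with a library left out. With mtAsn-2, 3 were lower under the stricter filter, which dropped NR4A3 and FOSB and so tested 8. Between mtAsn-1 and mtLys 0 to 1 of the 10 were higher with a library left out, and 120 to 395 of all genes were higher and 275 to 527 lower, beside 341 and 504. Of all genes, 145 were higher without mtAsn-1 replicate 2, 120 without mtLys replicate 2 and 142 without mtLys replicate 3, and 328 were lower without mtAsn-1 replicate 1, 284 without mtLys replicate 2 and 275 without mtLys replicate 3. In the other comparisons these counts stayed within 1.5 times.

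Values that turned sign belonged to differences that did not pass in either setting. JUNB with mtAsn-2 (-0.004) gave 0.004 with RLE factors, 0.025 with no filter, 0.001 under the stricter filter, 0.002 with the replicate block, 0.013 fitted alone, 0.009 with DESeq2, and -0.086 to 0.070 with a library left out. NR4A2 between mtAsn-1 and mtLys gave -0.001 with no filter. With a library left out, EGR1 with mtLys ranged from -0.12 to 0.15 and FOSL1 from -0.053 to 0.012. Between mtAsn-1 and mtLys, NR4A1 ranged from -0.044 to 0.062, NR4A2 from -0.11 to 0.11, NR4A3 from -0.41 to 0.26 and JUNB from -0.12 to 0.10. The cause was not tested.

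Replicate numbers do not pair the libraries. Deviations from group means correlated at -0.10 to 0.04 over 18 same-numbered pairs, beside -0.10 to 0.12 over 36 others, and 1 of 12 libraries matched its own number best. With the replicate block the single change of a call was FOS with mtAsn-2 (0.25, adjusted p = 0.0515). List counts were computed in 1 setting. Depth limits NR4A3 most, with 5 to 15 counts in the mtAsn-1 libraries and 14 or 15 in those of mtLys.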
